A study of Rattus norvegicus with 21 samples.

Results

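Microglia sorted from the injured side of the rat brain 24 h after stroke, made by closing the middle cerebral artery for a time (MCAO) and letting blood flow return, were compared with microglia sorted after a sham operation. The comparison was defined by the library titles, which give 3 MCAO microglia libraries and 3 sham microglia libraries, 6 of the 21 libraries of the series. All rats were adult and of the strain that the labels spell Winstar. In the MCAO rats a nylon filament blocked the vessel for 90 min and was then withdrawn. In the sham rats the right common carotid artery was exposed and the external carotid artery was tied off permanently. The treatment field of the sham libraries names a PBS injection at 24 h instead of an operation, and the labels do not settle which was done. Both groups were perfused with cold PBS, and brain cells were freed by enzymes, cleared of myelin on Percoll and sorted as CD11b+ with low CD45. The protocol gives 4 to 6 rats without saying whether a library holds 1 rat or several, so p-values below measure the spread between libraries. The other 15 libraries include MCAO macrophages (CD11b+ with high CD45, 3 libraries) of the same set, called the 24h set. These 3 were fitted together with the 6 compared, so they enter the filter, the scaling and the estimate of spread behind the p-values. The rest, used for reference, are a second set with 7D in its titles (MCAO microglia, MCAO macrophages and sham microglia, 4 libraries each). The treatment field of the 7D libraries still reads 24 h, so their time is not settled. The 4 called macrophages here carry MO in their titles, but their source names say microglia.

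Microglia are the resident macrophages of the brain. In the healthy tissue they survey their surroundings with motile processes and keep up a characteristic set of highly expressed genes. After ischaemia they retract these processes, take up debris and secrete inflammatory mediators, while monocytes enter from the blood and become macrophages that carry many of the same surface proteins. A gate on CD45 level is the usual way to separate these populations.

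Transcripts are identified in the files by Ensembl transcript numbers that could not be paired with gene names (0 of 30404 matched the rat gene table used), except for 2 lines named Chi3l1 and Nos2. For that reason markers of microglia, neutrophils, neurons or other brain cells could not be read, and the response is described by size, level, transcript length, library and cell population. In bulk libraries of sorted cells, a lower level can mean fewer cells carrying a transcript or less of it per cell, and these cannot be told apart.

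The total expected count was 8171479 to 9668961 in the MCAO microglia libraries and 6923630 to 7760586 in the sham libraries, so depth did not overlap between the groups. Between 15993 and 16351 transcripts were detected in each MCAO microglia library and between 16208 and 16335 in each sham library. The cell fraction field of MCAO microglia replicate 3 reads CD45high and that of macrophage replicate 3 reads CD45low, against their titles and source names.

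The identity of these libraries was checked with transcripts chosen only in the 7D set, which shares no library with the 24h set. The 7D macrophages were themselves taken by title, against source names that say microglia and a cell fraction field that reads CD45low. In that set 35 transcripts (0.262% of 13384 tested) were called and at least 8-fold higher in macrophages than in both MCAO and sham microglia. In the 24h set the summed level of these 35, in CPM (counts scaled to a common library size after TMM normalisation), was 1922, 1051 and 3017 in macrophage replicates 1 to 3. The same sum was 66.5, 19.8 and 34.0 CPM in MCAO microglia replicates 1 to 3 and 34.8, 21.5 and 29.0 CPM in sham replicates 1 to 3. Macrophage replicate 3 was therefore the highest of all 9 libraries, and microglia replicate 3 lay within the range of the sham libraries, each with the group of its title. MCAO microglia replicate 1 was the highest of the microglia, at 3.33% of the macrophage mean against 0.991% in replicate 2 and 1.70% in replicate 3. With a limit of 4-fold the list held 117 transcripts (0.874% of those tested), with sums of 1186, 406 and 688 CPM in the MCAO microglia and 282, 251 and 308 CPM in sham. On this wider list all 3 MCAO microglia libraries lay above all 3 sham libraries. It was at 9920 to 18930 CPM in the macrophages.

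**Figure D1:**
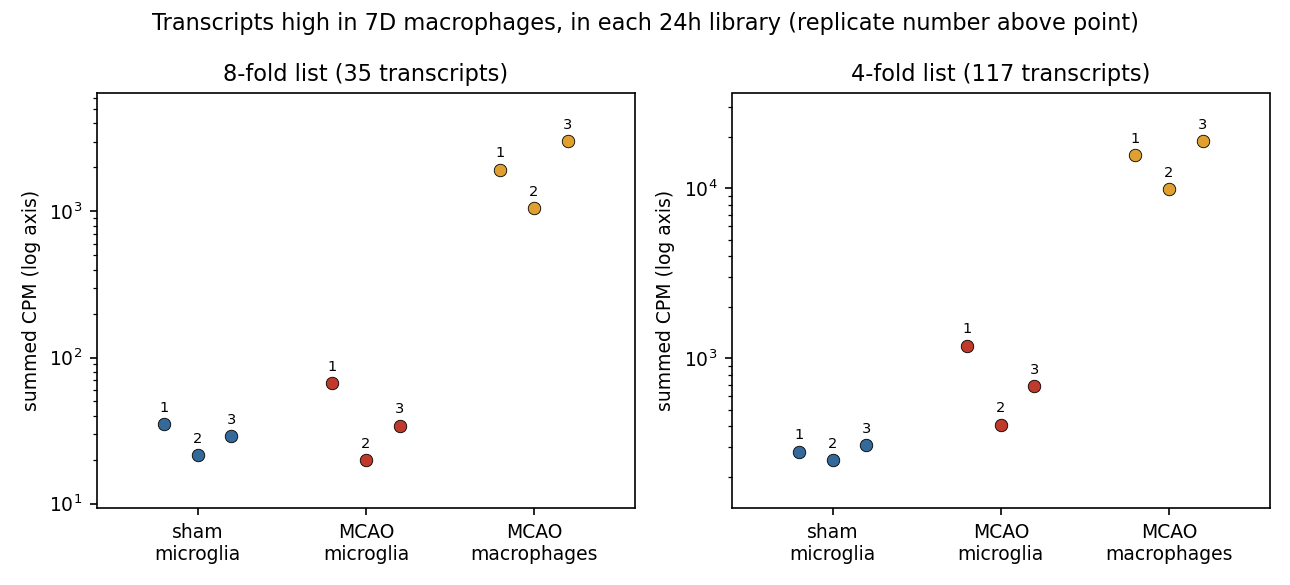
Summed CPM (log axis) of transcripts that were at least 8-fold (left) or 4-fold (right) higher in 7D macrophages than in both 7D microglia groups, for each library of the 24h set, with its replicate number above the point. The microglia libraries sit far below the macrophages on both lists, and MCAO replicate 1 is the highest microglia library (66.5 and 1186 CPM).

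Sorted microglia differed from sham in a large part of their transcripts 24 h after MCAO, mostly by less than 2-fold. Of 13081 transcripts tested with edgeR's quasi-likelihood test, 5948 (45.5%) were called at a Benjamini-Hochberg adjusted p under 0.05. Of these, 3246 rose (24.8%) and 2702 fell (20.7%). This balance turned with upper-quartile scaling, which gave 2908 rises and 3165 falls. The median size of the change among them was 0.82 on the log2 scale for those that rose and 0.66 for those that fell. A change of less than 2-fold made up 59.4% of the rises and 71.1% of the falls.

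The larger the change, the more it lay on the side of the rises. At least 2-fold rises numbered 1317 (10.1% of those tested) against 781 falls (5.97%). At least 4-fold there were 500 rises (3.82%) and 191 falls (1.46%), and at least 8-fold 262 rises (2.0%) and 70 falls (0.535%), a ratio of 3.74 to 1. With any of the 9 libraries of the 24h set left out, 183 to 296 transcripts fell at least 4-fold and 71 to 116 at least 8-fold. Those fits tested more transcripts, 13394 to 13546. Both counts were highest without MCAO microglia replicate 3, where 13546 were tested. A test against a 2-fold change itself (edgeR glmTreat) called 565 rises and 168 falls.

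Replicates separated the groups for most calls. All 3 MCAO libraries lay above all 3 sham libraries for 3210 of the 3246 rises, and below them for 2679 of the 2702 falls. The calls rest on these same libraries, so this separation describes them and does not test them. Over all transcripts tested, 3963 (30.3%) had MCAO libraries all above sham and 3730 (28.5%) all below. A further 79 transcripts had a fitted rise of at least 4-fold and 71 a fitted fall of that size without being called. They were scarce, with a median level of 1.36 and 1.00 log2 CPM, and the groups overlapped in 64 and 49 of them.

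**Figure D2:**
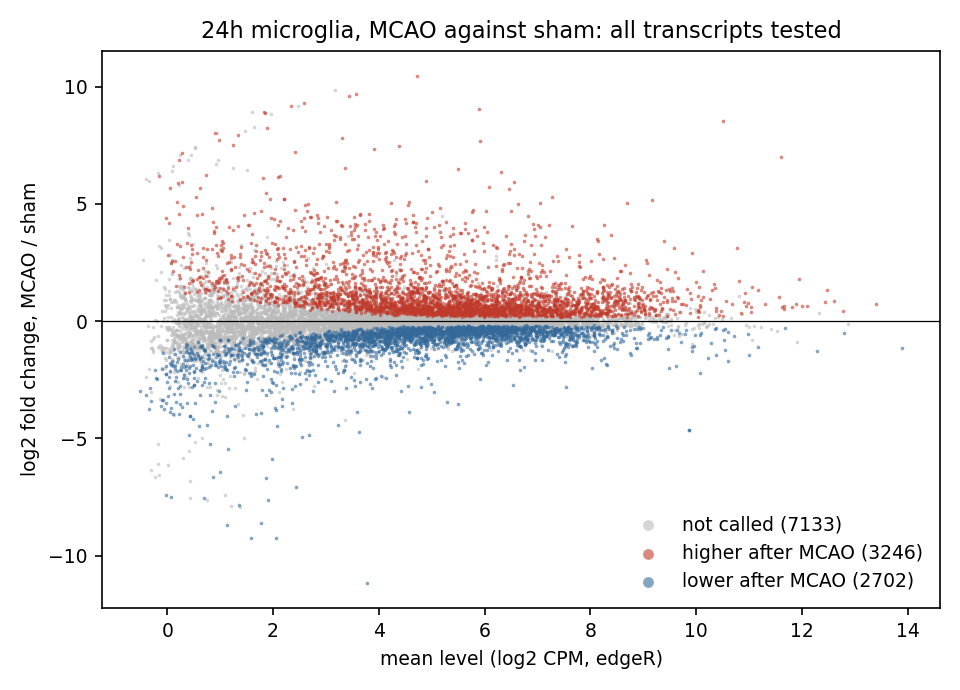
Log2 fold change of MCAO over sham microglia in the 24h set (vertical) against mean level in log2 CPM (horizontal), with 1 point per transcript tested. The 3246 transcripts called higher reach further from 0 than the 2702 called lower, while calls of small changes lie mostly at moderate and high levels.

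The calls took up much of the CPM of each library, a measure not corrected for transcript length. The transcripts called higher held 24.9%, 25.6% and 25.7% of CPM in sham replicates 1 to 3, and 48.2%, 44.5% and 43.3% in MCAO replicates 1 to 3. The mean was 25.4% ± 0.414 in sham and 45.3% ± 2.56 after MCAO (SD, n = 3 each). The transcripts called lower held 31.9% ± 0.163 of sham CPM and 19.1% ± 2.00 of MCAO CPM (n = 3 each). MCAO replicate 1 was at the extreme in both directions, with 48.2% in the rising and 16.8% in the falling transcripts. Since the calls were made on these libraries, the shares describe the change and do not test it. In the macrophages of the same set the transcripts that rose in microglia held 51.7% ± 1.33 and those that fell 14.0% ± 0.360 (n = 3).

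Losses were more concentrated than gains. The 10 transcripts with the largest loss carried 31.8% of the CPM lost by the called falls, and the 10 with the largest gain carried 15.3% of the CPM gained. The largest 100 carried 57.5% and 47.1%.

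Among the most abundant transcripts, ranked by TPM (the level per length, recomputed from expected counts and effective lengths), the groups largely shared membership but not proportions. Of the 10 most abundant in sham, 9 were among the 10 most abundant after MCAO. The 10 together fell from 18.6% ± 0.450 of TPM in sham to 14.2% ± 0.937 after MCAO (SD, n = 3 each), although 7 of them were called higher and 2 lower, both of these by at least 2-fold. The overlap was 67 of the top 100 and 392 of the top 500. Of the 100 most abundant in sham, 48 rose, beside 24.8% of all transcripts tested, and 23 fell, near the 20.7% of all. Of these 23, 11 fell at least 2-fold. In the highest 4th of tested transcripts by mean level (log2 CPM), a closer background, 36.6% rose and 21.7% fell. That background is not matched for transcript length. Of the 100 most abundant after MCAO, 79 rose, 34 of them at least 2-fold, and 7 fell. Ranking by the MCAO level favours transcripts that rose, so these 79 are a description.

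The 2 rises and 2 falls with the largest difference in mean CPM, among calls with separate groups and with whole expected counts in all 6 libraries, were followed through every population. They can be given by identifier only.

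The transcript with the largest gain, ENSRNOT00000050156 (1545 nt), was at 12748, 12819 and 11312 CPM in MCAO microglia replicates 1 to 3 and at 7350, 7239 and 7781 CPM in sham. The groups were well apart. The rise was 1.65-fold (log2 fold change 0.72 ± 0.07 SE, edgeR adjusted p = 0.00010, 6.1e-25 to 0.0069 over the alternatives). The 24h macrophages were at the same height as the MCAO microglia, with 12665 ± 201 CPM (SD, n = 3, log2 difference 0.04 ± 0.07, edgeR adjusted p = 0.65).

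ENSRNOT00000014177 (1942 nt) was at 8356, 6664 and 6632 CPM in the MCAO microglia and at 2983, 2792 and 2816 CPM in sham. Replicate 1 was the highest, and the other two were also above every sham library. The rise was 2.52-fold (log2 fold change 1.33 ± 0.11 SE, edgeR adjusted p = 4.1e-05, 5.1e-28 to 0.0013 over the alternatives). In the 24h macrophages it stood at 6874 ± 667 CPM (n = 3, log2 difference from microglia -0.07 ± 0.11, edgeR adjusted p = 0.62).

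The largest loss was that of ENSRNOT00000007175 (723 nt), with 29490, 30024 and 31767 CPM in sham replicates 1 to 3. After MCAO it was at 10132, 17759 and 13157 CPM, lowest in replicate 1 and highest in replicate 2. The fall was 2.22-fold (log2 fold change -1.15 ± 0.30 SE, edgeR adjusted p = 0.014). The 24h macrophages held 943, 1901 and 863 CPM, 11.1-fold below the MCAO microglia (log2 difference -3.47 ± 0.33 SE, edgeR adjusted p = 8.1e-05). Thus the microglia replicate with the most of the macrophage list had the least of this transcript. Its part in the fall was not tested. Replicate 2, which was also below every sham library here, was below every sham library on the 8-fold list (19.8 CPM) and above every sham library on the 4-fold list (406 CPM).

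ENSRNOT00000028732 (1300 nt) fell from 10491, 9069 and 10153 CPM in sham to 3445, 4609 and 4291 CPM after MCAO. No MCAO library came near the sham range. This was 2.41-fold (log2 fold change -1.27 ± 0.12 SE, edgeR adjusted p = 7.2e-05). In the 24h macrophages it was at 1005 ± 77.7 CPM (n = 3), 4.09-fold below the MCAO microglia (edgeR adjusted p = 1.0e-05). Both falls lost their call when groups were taken from the cell fraction field, with log2 fold changes of -1.67 (adjusted p = 0.30, 0.00017 to 0.30 over the alternatives) for ENSRNOT00000007175 and -1.72 (adjusted p = 0.11, 7.2e-25 to 0.11) for ENSRNOT00000028732.

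In the 7D set all 4 moved in the same direction from their own sham libraries. ENSRNOT00000050156 was at 11436 ± 464 CPM in MCAO microglia and 6629 ± 497 CPM in sham (n = 4 each, edgeR adjusted p = 1.4e-05). For ENSRNOT00000014177 the levels were 6711 ± 377 and 3010 ± 376 CPM (edgeR adjusted p = 7.4e-06), and for ENSRNOT00000028732 they were 3500 ± 449 and 8438 ± 1694 CPM (edgeR adjusted p = 3.4e-05). ENSRNOT00000007175 fell to 20566 ± 3586 from 32103 ± 4730 CPM, a 1.56-fold change (edgeR adjusted p = 0.0022). Its difference in log2 fold change between the sets, 0.52 ± 0.32 SE, missed the threshold (edgeR interaction test, adjusted p = 0.47), as did those of the other 3 (adjusted p = 0.72 to 1.00). The interaction test called 2.18% of 14252 transcripts. The macrophages that are so poor in ENSRNOT00000007175 in the 24h set held 20082 ± 1896 CPM of it in the 7D set (n = 4), close to the 7D microglia. The gate of the 7D macrophages is not settled by the labels, since their cell fraction field reads CD45low.

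**Figure D3:**
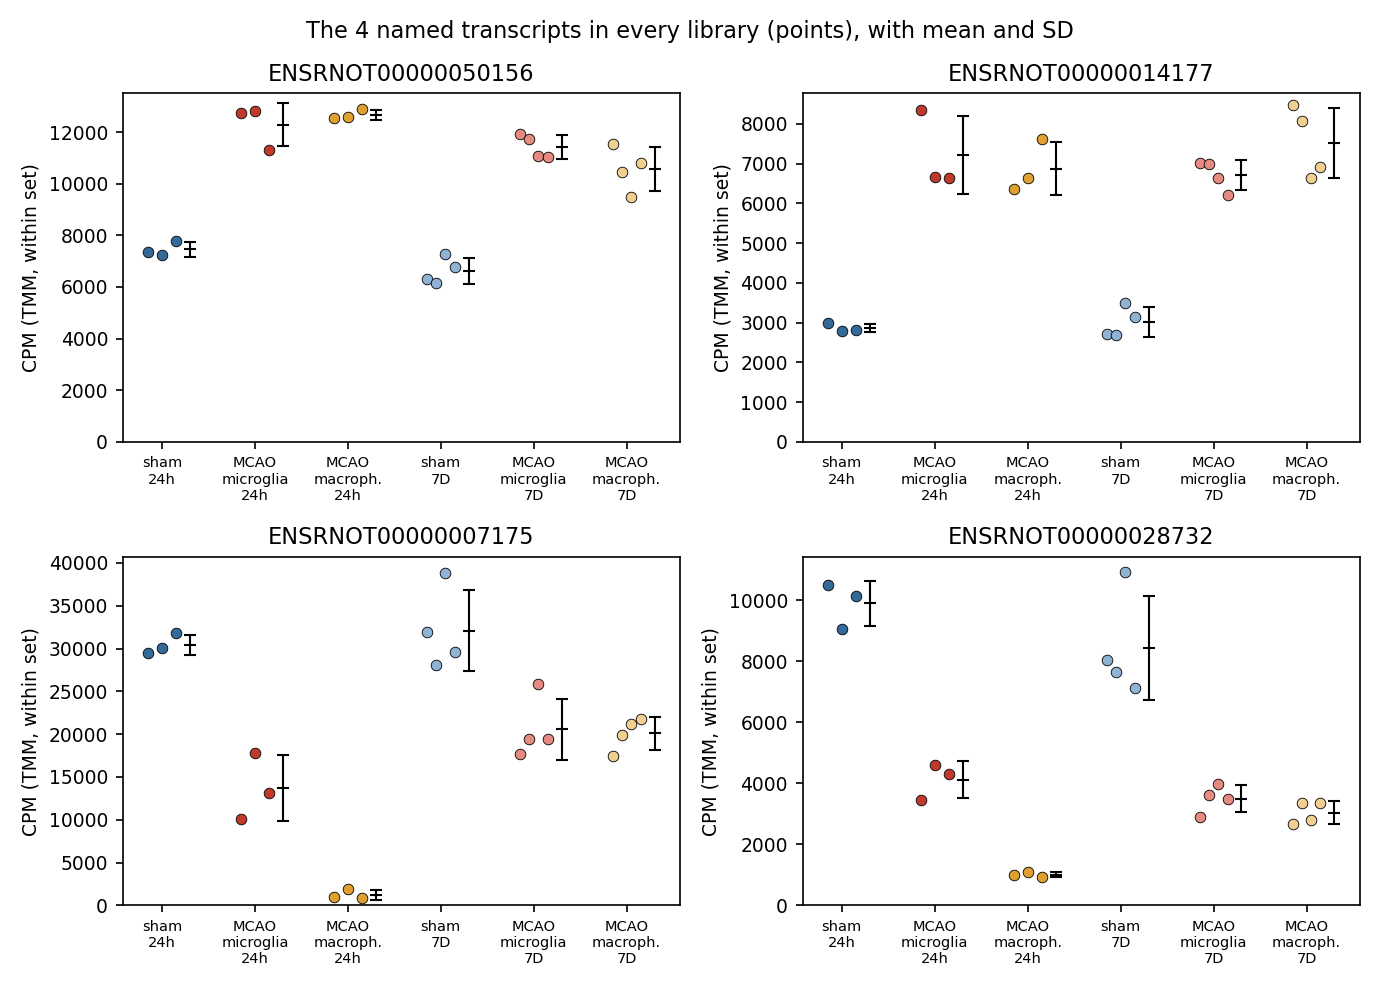
CPM of the 4 transcripts in every library (points) with the group mean and SD, for sham microglia, MCAO microglia and MCAO macrophages of both sets, scaled within each set. In the 24h set the 3 MCAO microglia points are separate from the 3 sham points in every panel, and the macrophages sit beside the MCAO microglia for both rises and far below them for both falls.

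Short transcripts rose more often than they fell, and long transcripts the reverse. In the shortest 4th of the transcripts tested (156 to 1353 nt), 1173 rose and 328 fell, or 35.8% and 10.0% of 3274. In the longest (over 3180 nt), 601 rose and 890 fell, or 18.4% and 27.2% of 3269. The median log2 fold change over all transcripts of a class, called or not, went from 0.27 in the shortest through -0.00 and -0.07 to -0.11 in the longest. Among the transcripts in the highest 4th by mean level (over 6.03 log2 CPM), 69.7% of the shortest rose and 7.74% fell, against 22.7% and 28.8% of the longest. The trend was not particular to MCAO against sham. In 24h macrophages against 24h MCAO microglia, 31.2% of the shortest class were higher and 14.7% lower, against 19.8% and 32.9% of the longest.

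The libraries of the groups also differed in fragment length. Fragments, measured as the median of transcript length minus effective length plus 1, averaged 159 to 163 nt in MCAO microglia libraries and 169 to 171 nt in sham libraries, without overlap. In the 24h macrophages, which showed the same trend against MCAO microglia, fragments averaged 157 to 169 nt, a range that spans the MCAO microglia. The part of fragment length in the trend was not tested. In the 7D set fragments averaged 180 to 186 nt in MCAO microglia. The groups overlapped there only through sham replicate 2 (178 nt), and the other sham libraries (188 to 189 nt) lay above every MCAO microglia library. In that set 31.7% of the shortest class rose and 14.0% fell, and 16.3% of the longest rose and 30.4% fell. Among transcripts with whole counts in all 6 libraries, in which no division of shared reads shows, 36.8% of the shortest rose and 11.4% fell. When the trend with length was removed from each library, an alternative added after the trend was seen, 756 of the shortest rose and 622 fell, and the totals were 3091 rises and 2664 falls.

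**Figure D4:**
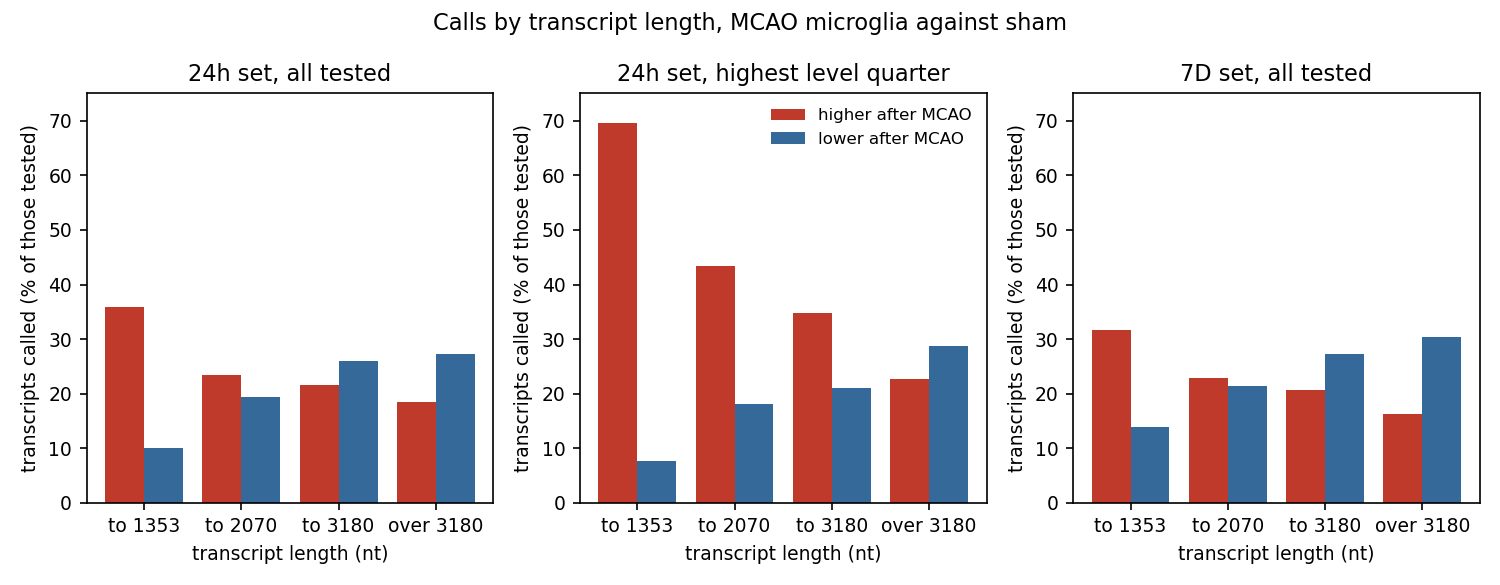
Percentage of tested transcripts called higher and lower in MCAO microglia, by classes of transcript length, for all transcripts of the 24h set, for its most abundant 4th, and for the 7D set. In each panel rises outnumber falls in the shortest class and falls outnumber rises in the longest, by 69.7% to 7.74% at one end of the middle panel and 22.7% to 28.8% at the other.

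By level, the share called grew with abundance for rises more than for falls. In the lowest 4th by mean level 11.9% rose and 15.4% fell, and in the highest 36.6% rose and 21.7% fell. Falls of at least 2-fold made up 12.6% of the lowest class and 2.54% of the highest, while rises of that size made up 10.1% and 10.5%. A count test finds small changes more easily where counts are high. The lowest class held fewer calls with any of the 9 libraries of the 24h set left out. It then had 250 to 371 rises instead of 389 and 319 to 492 falls instead of 503. Rises were fewest without MCAO replicate 1 (250), and falls without sham replicate 2 (319) and MCAO replicate 1 (320).

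A small number of transcripts were read in one group only. With 0 counts in all 3 sham libraries and at least 3 counts in each MCAO library there were 45 of 30404 transcripts. Of these 45, 27 passed the filter on low counts. Since the pattern itself sets the groups apart, their calls are not counted. Their mean MCAO level was 0.407 to 20.5 CPM, with a median of 1.05 CPM, and the limit for a sham library at 0 was 0.377 to 0.414 CPM (3 counts, counting error only). They summed to 187, 92.7 and 120 CPM in MCAO replicates 1 to 3, and 22 were highest in replicate 1. Of the 45, 27 had at least 3 counts in every 24h macrophage library and 1 was at 0 in all of them. In the 7D set 22 had at least 3 counts in every MCAO microglia library and 2 were at 0 in all of them. None had at least 3 counts in every 7D sham library, but no more than 5 of the 45 were at 0 in all of these.

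The opposite pattern, at least 3 counts in each sham library and 0 in each MCAO microglia library, was found for 17 of 30404 transcripts. Of these 17, 11 passed the filter. Their mean sham level was 0.447 to 33.4 CPM. In the 7D set 5 of the 17 were at 0 in all MCAO microglia and 1 had at least 3 counts in all of them, while in the 7D sham libraries 5 had at least 3 counts in all and 1 was at 0 in all. An expected count of 0 can also come from how reads shared with an isoform were divided. Every MCAO microglia library was deeper than every sham library, so 0 counts were easier to reach in sham. For that reason the sizes of the 2 lists cannot be compared directly. For the counts of both lists in other libraries, no share over all transcripts was computed.

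The 3 MCAO libraries changed in the same direction by different amounts. Over the 3246 rises the median difference from the sham mean was 0.86 in replicate 1, 0.65 in replicate 2 and 0.70 in replicate 3, as log2(CPM + 1). Replicate 1 was the highest of the 3 for 2196 of them (67.7%) and the lowest for 301. Over the 2702 falls the medians were -0.72, -0.57 and -0.56, and replicate 1 was the lowest for 1753 (64.9%). Among the 7133 transcripts not called it was the highest for 31.6% and the lowest for 38.6%.

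The same order was seen on transcripts chosen without these libraries. For 2996 transcripts called higher in 7D microglia the median differences in the 24h set were 0.77, 0.58 and 0.60, with replicate 1 the highest for 67.6%. For 2984 called lower in 7D microglia they were -0.66, -0.50 and -0.49, with replicate 1 the lowest for 60.6%. Each MCAO library lay above the sham mean for 94.9% to 95.9% of the former and 8.55% to 11.0% of the latter.

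**Figure D5:**
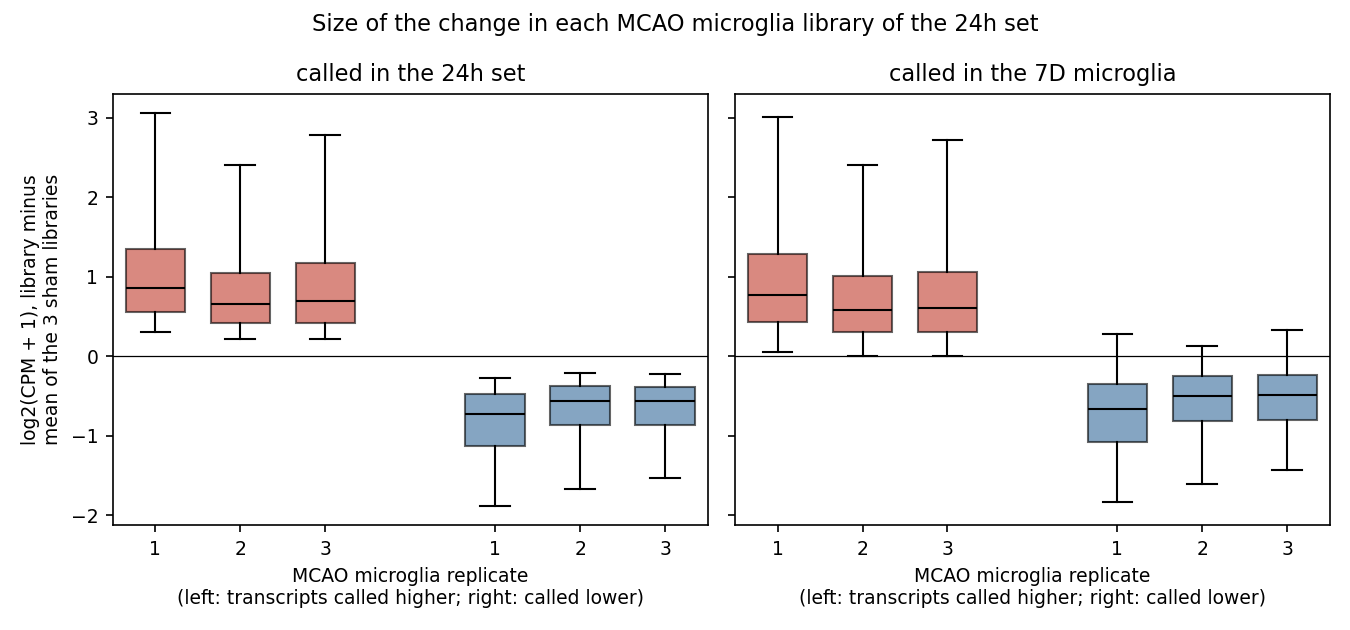
Difference of each MCAO microglia library of the 24h set from the mean of its 3 sham libraries, as log2(CPM + 1), for transcripts called in the 24h set (left) and in the 7D microglia (right). Boxes span the middle 50% with the median, and whiskers run from the 5th to the 95th percentile. Replicate 1 lies farther from 0 than its 2 companions in both directions and on both sets of transcripts.

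Replicate 1 is also the microglia library with the most of the macrophage list. Of the 114 transcripts of the 4-fold list tested here, 78 were highest in replicate 1, and against sham 30 rose (26.3%) and 17 fell (14.9%), beside 24.8% and 20.7% of all transcripts tested. The median log2 fold change was 0.71 beside 0.00 over all tested. Of the 34 tested from the 8-fold list, 3 rose (8.82%) and 9 fell (26.5%), with a median of -0.34, so the share that rose on the wider list and the share that fell on the narrower were near those of all transcripts. The part of other cells in the position of replicate 1 was not tested. Without this library the comparison called 2657 rises and 2074 falls, including 80.7% of the 3246 and 73.9% of the 2702. Calls that held when each of the 6 libraries was left out in turn numbered 2430 rises (74.9%) and 1772 falls (65.6%).

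The MCAO group was the more variable. Over 9410 transcripts with a mean of at least 3 log2 CPM, the median SD of log2(CPM + 1) was 0.139 in MCAO microglia, 0.102 in sham and 0.130 in macrophages, and the SD was larger in MCAO microglia than in sham for 63.7% of transcripts. MCAO replicates 1 and 2 were the farthest apart, with a median difference of 0.190, against 0.139 between replicates 2 and 3 and 0.111 to 0.122 between sham libraries.

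Most transcripts called at 24 h were called in the same direction in the 7D libraries, which are separate samples, and the share differed with the size of the change. Of the rises under 2-fold, 66.1% rose in 7D, and of the falls under 2-fold 62.2% fell. Of the 262 transcripts that rose at least 8-fold, 243 were tested in the 7D set and 208 rose there (85.6%), beside 22.9% of all 13384 transcripts. Their median log2 fold change was 3.92 at 24 h and 3.05 in 7D. For rises of 2- to 4-fold the medians were 1.30 and 0.91, and for rises under 2-fold 0.55 and 0.44. Of the 70 that fell at least 8-fold, 60 were tested and 47 fell in 7D (78.3%), beside 23.2% of all. Their medians were -3.88 and -3.73, those of falls of 4- to 8-fold -2.40 and -2.37, those of falls of 2- to 4-fold -1.31 and -1.22, and those of falls under 2-fold -0.52 and -0.41. The classes were chosen on their 24h values, and the difference between rises and falls was not tested. Opposite calls in 7D were made for 43 of the rises and 6 of the falls.

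Neither line with a gene name was called. Chi3l1 encodes a chitinase-like protein that myeloid cells and astrocytes secrete, and Nos2 encodes the nitric oxide synthase that inflammatory signals induce. Chi3l1 had expected counts of 482, 56 and 110 in MCAO replicates 1 to 3 and 74, 148 and 126 in sham, so that replicate 1 lay above and replicate 2 below every sham library. Nos2 had 91.8, 6 and 21.7 against 3.69, 26.9 and 11.7, with overlapping groups. The edgeR adjusted p was 0.47 for Chi3l1 and 0.36 for Nos2 (0.14 to 0.90 and 0.13 to 0.90 over the alternatives), and without replicate 1 their log2 fold changes turned to -0.67 and -0.20.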

How the data were processed

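The submitters' processing notes name bcl2fastq, TopHat2, RSEM and build rn5; versions, settings and annotation are not given in the sources used here. The authors deposited 1 file per library with RSEM expected counts, which divide reads shared by isoforms or copies. In the lines Chi3l1 and Nos2 the values sit 2 columns off, so their expected counts were read from the column that the authors deposited as FPKM; no FPKM value was used. Counts were not whole (tolerance 0.001) in at least 1 of the 6 libraries for 27.4% of the transcripts tested.

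Expected counts were rounded and fitted by group over the 9 libraries of the 24h set (edgeR 4.0.16 under R 4.3.3, TMM, quasi-likelihood F-test, filterByExpr with minimum count 10 and total 15). The 7D contrasts used 12 libraries and the interaction all 21. A call is a Benjamini-Hochberg adjusted p under 0.05 over all transcripts tested; rose, fell, higher and lower refer to calls. SE is |log2 fold change| over the root of F. Replicates differed by more than sampling noise (chi-square over df 5.57 to 20.8).

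The transcripts named by identifier were the 2 rises and 2 falls with the largest difference in mean CPM among calls with separate groups and whole counts in the 6 libraries; gene lists could not be applied. Members and lists were chosen with earlier results of these data known. Alternatives were DESeq2 1.42.0, limma-voom (limma 3.58.1), 2 other scalings, 2 other filters, other samples in the fit, the replicate block, other readings of the labels, whole counts only and each library left out in turn. Removal of the length trend and the test against a 2-fold change were added after the data were seen.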

Additional observations from a re-analysis of the deposited data

How the results depend on the processing

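Of 422 values recomputed for counts, shares and sums under the alternatives, 363 stayed near the reported value. Near meant within 1.5 times for counts, within the replicate SD for shares, and within counting error for sums of the 8-fold macrophage list. Sums of the 4-fold list were all set down as moved. Leaving out each library in turn gave 4731 to 6114 calls, and leaving out both libraries with conflicting fields gave 5320. DESeq2 called 5761 and limma-voom 6034. With the replicate block 5892 were called, and the block changed no call of a named transcript. Same-numbered MCAO and sham microglia libraries did not deviate together (r = -0.01 to 0.03). Microglia and macrophage libraries of the same number were not compared in this way, and their tests treat them as unpaired. Upper-quartile scaling moved the share of rises among the calls from 54.6% to 47.9%. Groups from the cell fraction field gave 3567 calls (2162 rises, 1405 falls), with 133 falls among the shortest transcripts, 359 rises and 458 falls among the longest, 207 and 262 in the lowest level class, and 329 falls in the highest. Falls of at least 4-fold numbered 89 with at least 50 counts in 3 libraries, which tests fewer transcripts, 127 with whole counts only, also fewer, and 183 to 296 with a library left out. Falls of at least 8-fold numbered 115 without a filter, 25 with the strict filter, 107 with all 21 libraries, 106 without both conflicting libraries, 40 with whole counts only and 71 to 116 with a library left out. The lowest level class held 141 rises and 156 falls under the strict filter, and 250 to 371 and 319 to 492 with a library left out. Removing the length trend left 756 rises and 622 falls among the shortest transcripts. Against a 2-fold change 565 rises and 168 falls were called.

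With a microglia library left out, shares were summed over the calls of that fit, which were fewer than in the main fit. The rises of these shorter lists held 39.9% to 45.4% of CPM after MCAO and 21.9% to 24.5% in sham. Their falls held 14.7% to 18.1% and 25.5% to 31.8%. These shares therefore do not follow 1 fixed set of transcripts. Without TMM the sham shares of the main calls were 26.3% and 33.0%. The 4-fold macrophage list summed to 1186.2, 405.7 and 687.5 CPM in MCAO microglia, 281.9, 251.3 and 307.9 CPM in sham and 15696.9, 9919.9 and 18930.4 CPM in macrophages, and the 8-fold list to 2935 CPM in macrophage replicate 3 without TMM. With a library left out the log2 fold change of Chi3l1 ran from -0.67 to 1.07 and that of Nos2 from -0.20 to 1.98, both reversed only without MCAO replicate 1. Where no construction is named, the cause was not tested. Depth limits the scarce transcripts: 3 counts are 0.315 to 0.414 CPM in these 6 libraries, so absence below that level is not shown.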
